A study of Mus musculus with 31 samples.

Results

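The genes described here are 34 mouse genes of glycolysis and of the hypoxia response, chosen by name with earlier results of these data known. All 34 were among the 24594 genes of the deposited count file, and all 34 passed the filter on low counts. The study sorted live CD45+ CD3+ CD4+ CD8- CD25+ cells as regulatory T cells (Tregs), with no FOXP3 gate, and sequenced their polyadenylated RNA in 31 libraries. The tumor-bearing mice, called KEP, were K14cre;Cdh1F/F;Trp53F/F on the FVB/N background. A keratin promoter drives Cre in their epithelium and deletes E-cadherin and p53 there, and they carried mammary tumors of 225 mm2. The wild-type controls (WT) were wt;Cdh1F/F;Trp53F/F, so that they held the same floxed alleles without Cre. Both genotypes have 3 libraries each of lung, blood, lymph node and spleen; 3 further KEP libraries are of tumor and 4 WT libraries of healthy mammary gland. A KEP library holds cells of 1 mouse, whereas 3 mice were pooled for every WT library. In KEP mice the tumor-draining lymph nodes were taken. The number of sorted cells differed between groups. Its lowest and highest values were both lower in WT than in KEP blood, with overlap, and lower in mammary gland than in tumor. It was the same in all spleen libraries and overlapped between the genotypes in lung and lymph node. The part of cell number in the results was not tested. The labels give no ages.

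Glycolysis turns glucose into pyruvate in the cytosol, and activated T cells use it heavily. Regulatory T cells are known to rely on it less than effector T cells, while glycolysis and lactate handling by Tregs in tumors have been studied as part of their adaptation to that tissue. In hypoxia the transcription factor HIF is stabilised. Its alpha subunit, encoded by Hif1a, is otherwise marked for destruction by prolyl hydroxylases of the Egln family. HIF induces glucose transporters, most glycolytic enzymes, the lactate exporter Slc16a3, the mitophagy receptors Bnip3 and Bnip3l, and its own negative regulators Egln1 and Egln3. Hif1a itself is regulated mostly at the protein level, so that its RNA is not a measure of HIF activity.

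Levels are in CPM, the counts of a gene scaled by library size and TMM factor, listed by replicate 1 to 3 (1 to 4 for mammary gland). Errors of levels are standard deviations (SD, n = 3 unless stated), and errors of log2 fold changes are standard errors (SE). Calls rest on the quasi-likelihood test of edgeR, with p adjusted by Benjamini-Hochberg over 15202 genes and a threshold of 0.05, and "rose" and "fell" are used for called genes. Library totals ran from 8154765 to 15258958 counts. In the 24 libraries outside tumor and gland, 10 pan-T genes summed to 4866 to 6058 CPM. In tumor they summed to 6103, 3502 and 1845 CPM and in mammary gland to 456, 1936, 169 and 213 CPM, so that only tumor replicate 1 reached the level of the other tissues. Stromal and endothelial markers summed to 4309, 9415 and 9794 CPM in tumor against 168 to 253 CPM in the other KEP tissues, and 9 macrophage markers to 782, 5323 and 1174 CPM against 16 to 81 CPM. Epithelial markers reached 5412 to 7387 CPM in mammary gland. In such bulk libraries fewer cells of a type and less RNA per cell cannot be told apart.

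Per kilobase of annotated exon, the members most abundant across blood, spleen, lung and lymph node were Ldha, which converts pyruvate to lactate (a mean of 194 CPM per kilobase over the 8 group means), Pkm, the pyruvate kinase of the last step (163), and the aldolase Aldoa (144). Adm, the vasodilator peptide adrenomedullin, was the lowest at 0.323 CPM per kilobase, followed by Vegfa, the angiogenic growth factor, at 0.600. Both had at most 6 counts per library in blood, spleen and lymph node. Gapdh, a glycolytic enzyme that is abundant in most cells, was listed at only 2.70 to 48.4 CPM over all 31 libraries. Its level is uncertain, because 23.5% of the 65-base windows of its transcripts also occur in other genes, 149 in number, and reads that match several places may have been left out of the counts. The same applies to Pgk1 (53.2% of windows shared), Bnip3 (39.1%), Pgam1 (35.4%) and Eno1 (24.1%), whose levels are likewise uncertain. Pkm shared 20.8% of its windows. For 11.2% of its windows the other gene was Gm49759, which overlaps Pkm on the same strand and is not in the count file. The level of Pkm is uncertain as well. Pfkp, Pfkm, Aldoa, Tpi1, Gapdh, Mxi1 and Ankrd37 overlap a protein-coding gene on the opposite strand, and the strand setting of the counting is not stated.

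**Figure D1:**
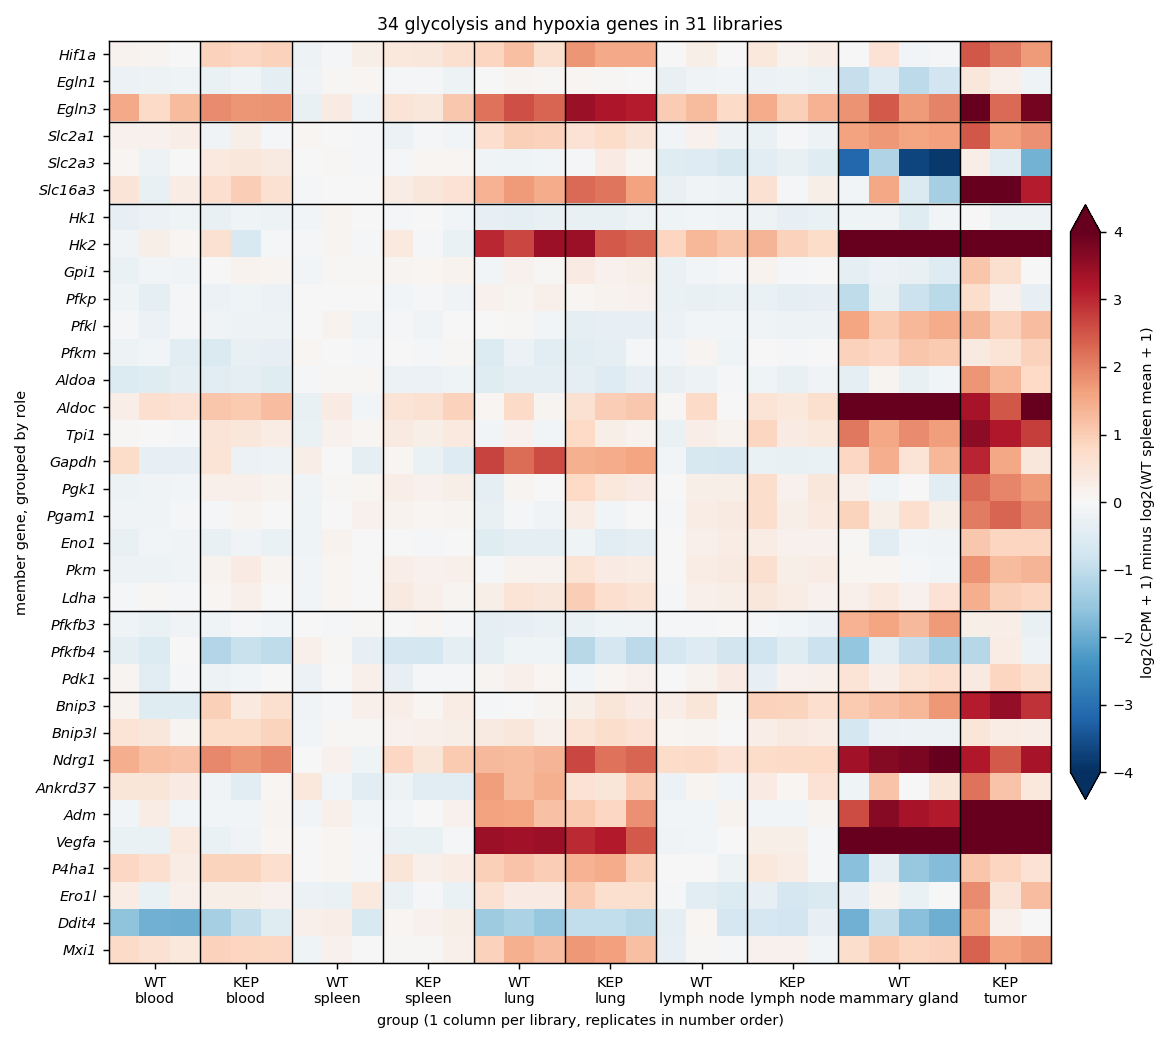
Levels of the 34 members in 31 libraries, 1 row per gene and 1 column per library, as log2(CPM + 1) minus the log2 value of the WT spleen mean, with colours limited to 4 units either way. The 3 tumor columns and the 4 mammary gland columns stand apart from the 24 others, and Hk2, Vegfa and Egln3 are also high in the 6 lung columns.

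HIF binds a short core motif, ACGTG or GCGTG, on either strand. The 250 bases upstream of each RefSeq start site (GRCm38.p6) were searched for these letters. Windows were found for 30 of the 34 members; Slc2a3, Ndrg1, Ero1l and Bnip3l had none. Of the 30, 28 (93.3%) held at least 1 match in a window, against 41.5% of 27025 genes. ACGTG was in 63.3% of them against 18.5% of genes, and GCGTG in 66.7% against 30.9%. Several members are textbook HIF targets, so that a high share describes the choice of genes, and base composition was not taken into account. A match describes letters and is not evidence of binding. Shown are the windows of 4 members among the 8 with the smallest p in tumor against KEP spleen and those of Tpi1 and Gpi1, the only 2 of the 30 without a match. Tpi1 rose in tumor against each KEP tissue and Gpi1 was called against none. They read 5′ to 3′ on the gene's strand, with matches in capitals; a match to the other strand reads CACGT or CACGC.
Bnip3, chr7:138909507-138909756, minus strand: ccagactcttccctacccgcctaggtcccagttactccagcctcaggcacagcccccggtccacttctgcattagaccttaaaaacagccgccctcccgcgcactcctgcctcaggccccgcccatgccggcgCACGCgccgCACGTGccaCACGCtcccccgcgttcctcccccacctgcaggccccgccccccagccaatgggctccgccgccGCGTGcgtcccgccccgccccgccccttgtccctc
Pgk1, chrX:106186850-106187099, plus strand: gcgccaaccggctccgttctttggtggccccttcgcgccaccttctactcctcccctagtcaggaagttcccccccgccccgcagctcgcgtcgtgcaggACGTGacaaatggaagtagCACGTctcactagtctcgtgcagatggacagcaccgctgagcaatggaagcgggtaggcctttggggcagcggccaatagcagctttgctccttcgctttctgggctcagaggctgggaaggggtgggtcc
Pgam1, chr19:41911621-41911870, plus strand: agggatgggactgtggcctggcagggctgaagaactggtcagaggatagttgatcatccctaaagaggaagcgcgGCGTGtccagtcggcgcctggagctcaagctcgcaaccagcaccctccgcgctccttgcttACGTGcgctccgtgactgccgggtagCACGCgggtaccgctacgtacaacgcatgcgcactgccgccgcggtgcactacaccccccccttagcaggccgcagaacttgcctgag
Hk2, chr6:82774455-82774704, minus strand: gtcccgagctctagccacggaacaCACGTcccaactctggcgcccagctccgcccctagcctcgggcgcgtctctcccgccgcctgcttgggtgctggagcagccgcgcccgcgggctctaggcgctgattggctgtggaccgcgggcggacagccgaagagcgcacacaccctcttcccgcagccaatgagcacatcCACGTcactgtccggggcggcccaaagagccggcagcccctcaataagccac
Tpi1, chr6:124814159-124814408, minus strand: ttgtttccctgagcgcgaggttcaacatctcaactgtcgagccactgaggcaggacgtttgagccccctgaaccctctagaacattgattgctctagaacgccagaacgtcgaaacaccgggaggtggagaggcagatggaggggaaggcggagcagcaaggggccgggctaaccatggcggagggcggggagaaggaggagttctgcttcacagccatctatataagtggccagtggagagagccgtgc
Gpi1, chr7:34230337-34230586, minus strand: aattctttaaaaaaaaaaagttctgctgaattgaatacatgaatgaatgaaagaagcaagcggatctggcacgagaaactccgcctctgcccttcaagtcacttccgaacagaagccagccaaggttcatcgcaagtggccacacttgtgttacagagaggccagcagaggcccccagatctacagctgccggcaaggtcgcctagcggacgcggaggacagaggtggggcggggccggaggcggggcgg
Bnip3 held 5 match positions, Pgam1 3, Pgk1 and Hk2 2 each, and Tpi1 and Gpi1 none.

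Outside the tumor, Hif1a and Ndrg1 rose in blood, spleen and lung of KEP mice, and the transporter Slc2a3, the kinase Pkm and the targets Bnip3l and Egln3 rose in blood and lung. In blood, 11 of the 34 members were called, 10 higher and 1 lower in KEP mice, against 16.2% of all genes tested, 8.88% higher and 7.29% lower (20.3% in all where the filter was applied to the 24 fitted libraries alone). In lung 12 were called, 8 higher and 4 lower, against 15.7% (20.0%), of which 8.03% were higher and 7.67% lower. In spleen 2 were called, both higher, against 3.27% (4.29%), of which 2.62% were higher and 0.651% lower. In the lymph node none of the 34 passed by edgeR or by DESeq2, against 0.888% of all genes (1.10%). There 7 members had an unadjusted p under 0.05, a count not made for all genes. The share of members called was thus above that of all genes in blood and lung. Because the members were chosen with earlier results of these data known, this describes the chosen genes and is not an independent result. The median log2 fold change of the members was 0.13 in blood, 0.08 in spleen, 0.22 in lung and 0.15 in lymph node, and that of all genes was 0 in each tissue. The libraries of the 2 genotypes never shared a title date, so that date and genotype cannot be told apart. The labels do not say whether the replicates of a group came from different mice, so p-values measure only the spread between these libraries. Scaling to pan-T genes ended the calls of Ldha, Slc2a3, Pkm and Bnip3l in lung and of Slc16a3 and Egln3 in blood, and RLE factors ended those of Gpi1 and Egln3 in blood. One fit of all 31 libraries, whose spread includes tumor and gland, kept 3 calls in blood, none in spleen and 3 in lung. It ended those of Ndrg1 (adjusted p = 0.1), Slc2a3 (0.701), Pfkfb4, Ddit4, Pkm, Gpi1, Slc16a3 and Egln3 in blood, and of Ndrg1 (0.0978) and Hif1a (0.337) in spleen. In lung it ended those of Egln3, Gapdh, Pfkl, Pfkfb4, Ankrd37, Ldha, Slc2a3, Pkm and Bnip3l.

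Markers of proliferating cells had higher sums in KEP than in WT spleen, lung and lymph node, without overlap. The 10 genes summed to 282 to 553.5 CPM in KEP and 187 to 235 CPM in WT spleen, where all 10 had a positive log2 fold change and 2 rose. In lymph node they summed to 295 to 849 CPM in KEP and 212 to 268 CPM in WT, again with 10 positive values but none called. In lung 4 of the 10 rose and in blood none. Their part in the results of the members was not tested.

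Hif1a (chr12:73901375-73947530 on GRCm38), the oxygen-regulated HIF subunit, stood at 299.9, 278 and 298 CPM in KEP blood and 174, 168 and 155 CPM in WT blood. It stood at 533, 446 and 446 CPM in KEP lung and 285, 365 and 247 CPM in WT lung. In spleen the values were 212, 213 and 246 CPM for KEP and 135, 151 and 185 CPM for WT. Every KEP library was above every WT library in these 3 tissues, and lung was the highest of the 4 tissues in both genotypes. The log2 fold changes were 0.82 ± 0.12 in blood (adjusted p = 9.2e-05), 0.67 ± 0.12 in lung (0.000696) and 0.51 ± 0.12 in spleen (0.0171). The spleen call was lost without WT spleen replicate 1 or 2 or KEP spleen replicate 3, with adjusted p up to 0.132. In lymph node the values overlapped, at 212, 172 and 188 CPM for KEP and 158, 186 and 157 CPM for WT (log2 fold change 0.19 ± 0.12, adjusted p = 0.572).

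Ndrg1 (chr15:66929321-66969640), a gene known to be induced by hypoxia and other stress, showed the smallest adjusted p of the members in lung and spleen. Its levels were 252, 178 and 198 CPM in KEP lung and 96.9, 95.1 and 101 CPM in WT lung. In spleen they were 70.2, 55.2 and 81.9 CPM for KEP against 38.2, 43.7 and 34.7 CPM for WT, and in blood 152, 136 and 151 CPM against 108, 91.5 and 86.5 CPM. The genotypes did not overlap in any of these 3 tissues. The log2 fold changes were 1.10 ± 0.12 in lung (adjusted p = 2.82e-06), 0.83 ± 0.13 in spleen (0.000168) and 0.62 ± 0.12 in blood (0.00108). In the lymph node Ndrg1 stood at 64.9, 66.3 and 67.9 CPM in KEP and 65.4, 67.5 and 59.0 CPM in WT, which overlapped, with a log2 fold change of 0.05 ± 0.12. A test of whether the KEP difference itself varied among the 4 tissues called Ndrg1 alone of the members (adjusted p = 0.0312), against 0.171% of all genes. By that test 7 members had an unadjusted p under 0.05, a count not made for all genes. The call was lost without any 1 of 9 libraries of spleen, lung or lymph node, under pan-T scaling and in the fit of all 31 libraries. DESeq2 called 2 members, Ndrg1 and Ddit4.

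Of the glucose transporters, Slc2a3, the high-affinity transporter, rose in blood, where it stood at 318, 332 and 315 CPM in KEP and 259, 214 and 248 CPM in WT (log2 fold change 0.42 ± 0.09, adjusted p = 0.00123). It also rose in lung, from 222, 218 and 229 CPM in WT to 238, 305 and 266 CPM in KEP (0.27 ± 0.09, 0.0306). The groups did not overlap in either tissue. Slc2a1, the broadly expressed transporter, had a negative log2 fold change in all 4 tissues (-0.19 in blood, -0.13 in spleen, -0.24 in lung and -0.15 in lymph node) and was called in none. As a share of the length-scaled counts of both genes, which does not depend on the scaling between libraries, Slc2a3 made up 72.3% ± 2.40 in KEP blood and 62.8% ± 2.20 in WT blood. The shares were 58.7% ± 2.26 and 50.1% ± 2.79 in lung, 63.1% ± 1.13 and 58.3% ± 2.90 in lymph node, and 68.9% ± 0.317 and 66.6% ± 0.849 in spleen. The KEP share was above every WT library in each of the 4 tissues. The exact two-sided permutation p was 0.1 in each, the smallest that 3 against 3 libraries allow, and 0.166 after adjustment over 96 share tests.

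**Figure D2:**
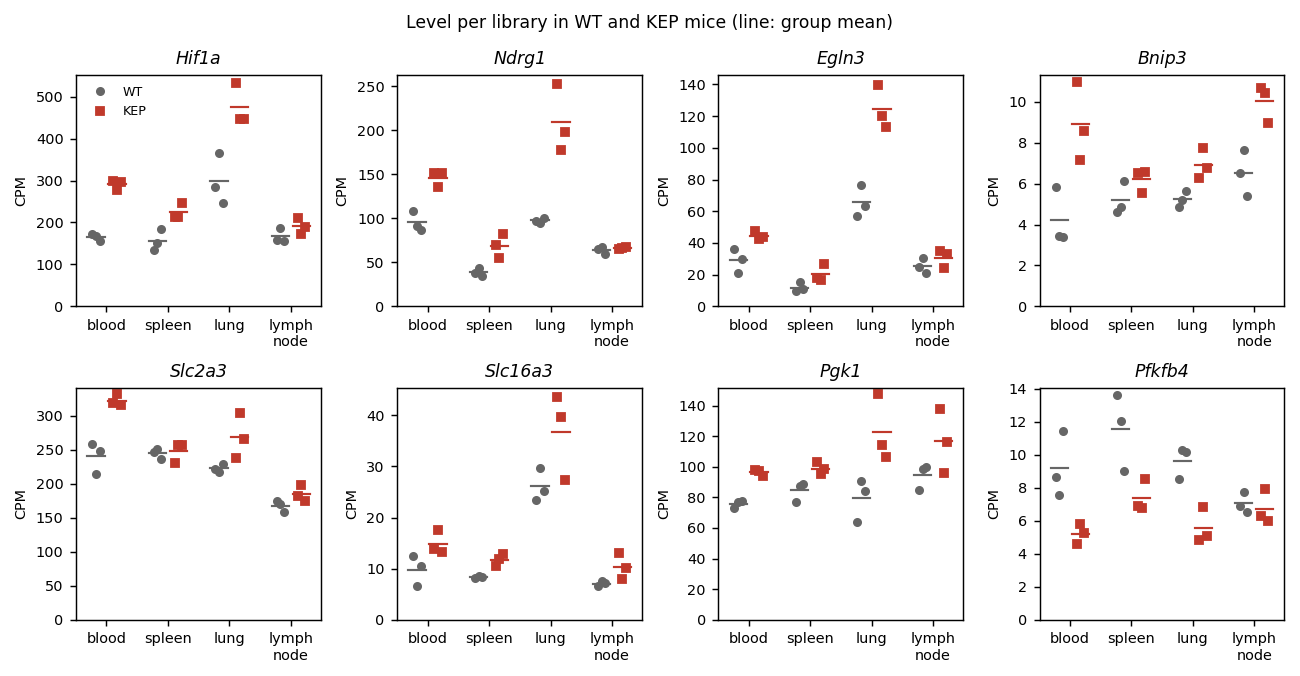
Levels in CPM of members called in KEP against WT comparisons, with 1 point per library and a bar at the group mean, in blood, spleen, lung and lymph node. Hif1a and Ndrg1 separate the genotypes in blood, spleen and lung and overlap in lymph node.

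Of the enzymes of glycolysis, Pkm and Gpi1 rose in blood and Pgk1, Pkm and Ldha in lung. Pkm stood at 797, 899 and 779.5 CPM in KEP blood against 631, 628 and 657 CPM in WT (log2 fold change 0.37 ± 0.10, adjusted p = 0.0124) and at 1060, 899 and 878 CPM in KEP lung against 687, 794 and 797 CPM in WT (0.32 ± 0.10, 0.0309). Gpi1, which converts glucose phosphate to fructose phosphate, stood at 503, 553 and 537 CPM in KEP blood and 416, 464 and 455 CPM in WT blood (0.25 ± 0.08, 0.0349). The groups did not overlap in these comparisons. Pgk1, the kinase of the first step that yields ATP, stood at 147, 114 and 106 CPM in KEP lung and 63.6, 90.9 and 84.0 CPM in WT lung (0.63 ± 0.13, 0.00147). Ldha stood at 1056, 857 and 789.9 CPM in KEP lung and 634, 776 and 736 CPM in WT lung (0.33 ± 0.11, 0.0305). In KEP lung, replicate 1 was the highest of the group for Pgk1, Pkm and Ldha, and its 10 proliferation markers summed to 1225 CPM against 428 to 456 CPM in the other KEP lung libraries and 357 to 382 CPM in WT. Without that library the calls of Pkm and Ldha were lost and that of Pgk1 was kept.

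Members that fell in KEP mice were Pfkfb4 in blood and lung, and Pfkl, Gapdh and Ankrd37 in lung. Pfkfb4, which sets the activator of phosphofructokinase, stood at 4.59, 5.79 and 5.24 CPM in KEP blood and 8.63, 7.55 and 11.4 CPM in WT (log2 fold change -0.82 ± 0.21, adjusted p = 0.00717). In lung it stood at 4.84, 6.82 and 5.09 CPM in KEP against 8.53, 10.3 and 10.2 CPM in WT (-0.79 ± 0.21, 0.00991). Pfkl, the liver-type phosphofructokinase, stood at 80.0, 80.8 and 80.8 CPM in KEP lung and 102, 106 and 95.6 CPM in WT lung (-0.33 ± 0.08, 0.00662). In each of these the groups did not overlap. Gapdh counts were also lower in KEP lung, at 15.01, 15.8 and 16.8 CPM against 37.8, 26.95 and 35.4 CPM (-1.07 ± 0.26, 0.00632), within the limit on its level given above. Ankrd37, a hypoxia-induced ankyrin repeat gene, stood at 5.42, 5.05 and 7.68 CPM against 12.7, 9.34 and 10.5 CPM (-0.85 ± 0.26, 0.0247). In lung, 9 macrophage markers summed to 40 to 81 CPM in KEP and 102 to 179 CPM in WT, none of them at 0 throughout either group, and their part in these lung results was not tested.

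Among the HIF targets outside glycolysis, the mitophagy receptors rose in blood. Bnip3 (chr7:138890836-138909519) stood at 10.96, 7.14 and 8.58 CPM in KEP blood and 5.82, 3.44 and 3.42 CPM in WT blood (log2 fold change 1.07 ± 0.22, adjusted p = 0.00157). Bnip3l stood at 187, 186 and 209.6 CPM in KEP against 164, 155 and 121 CPM in WT in blood (0.41 ± 0.09, 0.00256), and at 166, 184 and 167 CPM in KEP against 143, 153 and 129.7 CPM in WT in lung (0.28 ± 0.09, 0.0339). No KEP value overlapped a WT value. Ddit4, an inhibitor of mTORC1, stood at 102, 131 and 182 CPM in KEP blood and 83.5, 67.1 and 64.6 CPM in WT (0.95 ± 0.24, 0.0108). Egln3, the prolyl hydroxylase that feeds back on HIF, stood at 139.7, 119.9 and 113 CPM in KEP lung and 56.8, 76.7 and 63.2 CPM in WT lung (0.92 ± 0.20, 0.0035). Its paralog Egln1 had log2 fold changes of -0.06, -0.11, -0.01 and -0.06 in blood, spleen, lung and lymph node, none called. Slc16a3 and Egln3 were also called in blood, at adjusted p of 0.041 and 0.0492.

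In spleen the third smallest p belonged to Aldoc, an aldolase isoform, at 7.79, 8.13 and 10.4 CPM in KEP and 3.94, 6.51 and 4.63 CPM in WT, without overlap (log2 fold change 0.80 ± 0.24, adjusted p = 0.068). In lymph node the smallest p belonged to Bnip3, Tpi1 and Slc16a3. Bnip3 stood at 10.7, 10.4 and 8.97 CPM in KEP and 6.52, 7.64 and 5.40 CPM in WT (0.63 ± 0.21, 0.186). Tpi1, triose phosphate isomerase, stood at 107, 74.0 and 79.7 CPM in KEP against 48.9, 71.7 and 64.5 CPM in WT (0.50 ± 0.17, 0.191). Slc16a3 stood at 13.1, 8.00 and 10.0 CPM in KEP against 6.52, 7.53 and 7.17 CPM in WT (0.56 ± 0.21, 0.233). None of these 3 overlapped between the groups and none passed the test. Without overlap stood 17 members in blood, 16 in spleen, 19 in lung and 6 in lymph node, against 28.8%, 21.9%, 30.0% and 21.2% of all genes.

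Across the 4 tissues, 16 members had a positive log2 fold change in each: Hif1a, Slc2a3, Gpi1, Aldoc, Tpi1, Pgk1, Pgam1, Pkm, Ldha, Bnip3, Bnip3l, Ndrg1, Egln3, P4ha1, Slc16a3 and Mxi1. The tissues of a genotype share title dates, so that these are not independent repeats. How many of all genes had a positive value in each tissue was not counted. Hif1a and Ndrg1 were called in 3 tissues, and Slc2a3, Pkm, Bnip3l and Egln3 in 2. The 5 genes used as Treg markers (Foxp3, Il2ra, Ctla4, Ikzf2 and Tnfrsf18) also summed higher in KEP mice. Their sums were 3913 to 4870 against 2200 to 2970 CPM in blood, 2703 to 3514 against 1883 to 2285 in spleen, 5723 to 6040 against 3673 to 4483 in lung and 3484 to 3824 against 2646 to 3480 in lymph node. Their part in the differences of the members was not tested.

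**Figure D3:**
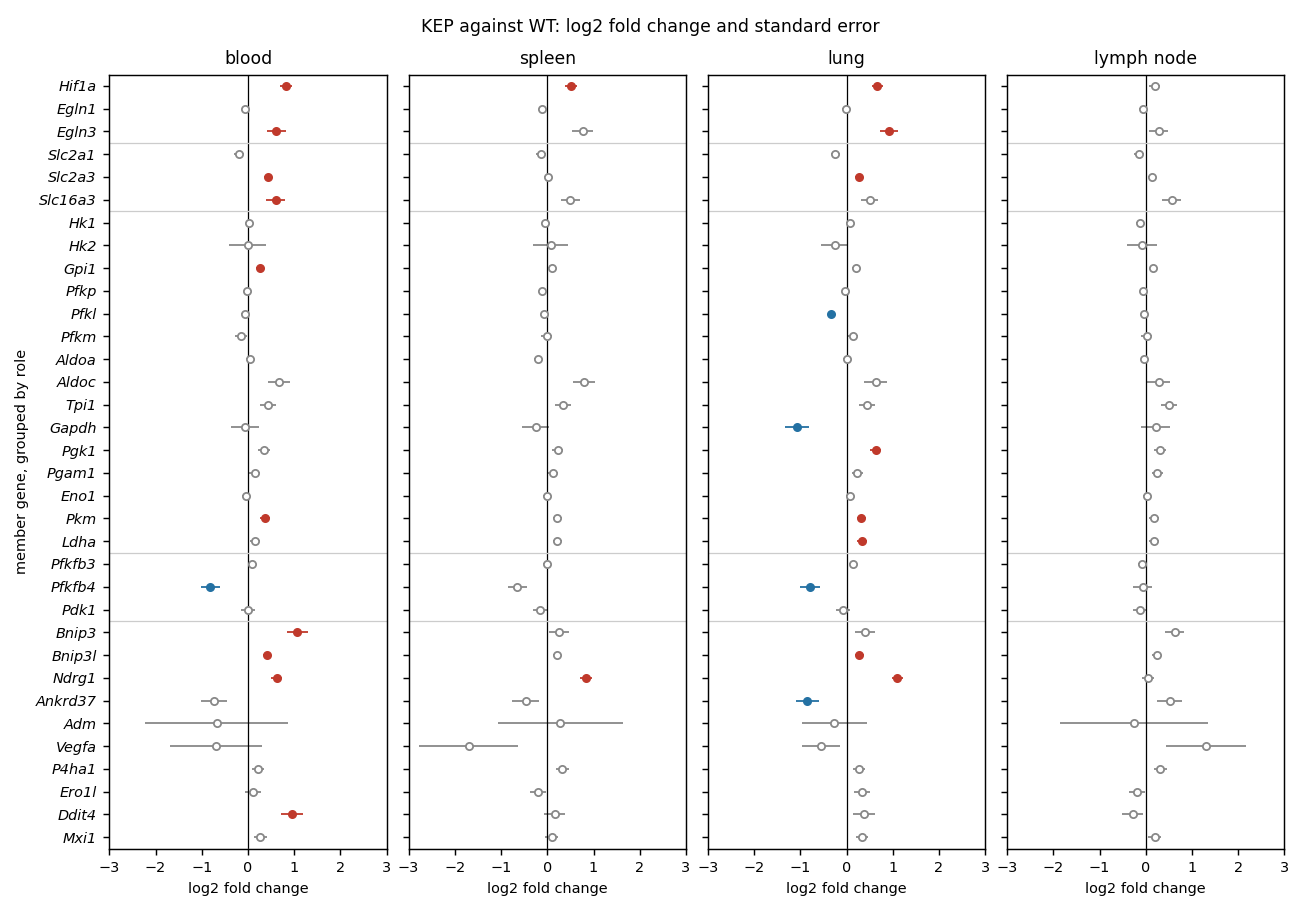
Log2 fold change of KEP against WT, with its SE, for the 34 members in blood, spleen, lung and lymph node. Filled points are called genes: 11 in blood, 2 in spleen, 12 in lung and none in lymph node.

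Lists of related genes outside the 34 were counted in the same comparisons, beside 8.88% of all genes higher and 7.29% lower in blood and 8.03% and 7.67% in lung. Of 28 other glucose metabolism genes, 2 rose and 3 fell in KEP blood, and 3 rose and 2 fell in KEP lung. Eno3, an enolase isoform, fell in both tissues (log2 fold change -0.82 ± 0.15 in blood, -0.70 ± 0.15 in lung), as did Pgls of the pentose phosphate pathway (-0.37 ± 0.12 and -0.45 ± 0.12). Adpgk, an ADP-dependent glucokinase, fell in blood (-0.36 ± 0.13), where Pgm1 (0.49 ± 0.12) and Eno2 (0.80 ± 0.20) rose. In lung Pdk3, a kinase that holds back pyruvate dehydrogenase, rose (0.79 ± 0.15), as did Pgm1 (0.37 ± 0.12) and Taldo1 (0.27 ± 0.09). Of 10 HIF subunits and regulators, Arnt, the partner of HIF alpha, rose in blood (0.29 ± 0.07) and Siah2 fell (-0.61 ± 0.17). In lung the HIF hydroxylases Hif1an (-0.31 ± 0.08) and Egln2 (-0.32 ± 0.11) fell.

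Of 30 other hypoxia targets, 3 rose and 1 fell in blood, 4 rose in lung, 1 rose in spleen and 1 fell in lymph node, where 0.375% of all genes fell. Wsb1, a ubiquitin ligase subunit, rose in blood (0.34 ± 0.08) and lung (0.41 ± 0.08), and Plod2, a lysyl hydroxylase of collagen, in lung (1.77 ± 0.35) and spleen (1.60 ± 0.38). Rora (0.45 ± 0.11) and the transferrin receptor Tfrc (0.54 ± 0.16) rose in blood, Insig2 rose in lung (0.52 ± 0.12), and the carbonic anhydrase Car12 fell in blood (-1.16 ± 0.20). P4ha2 fell in lymph node, from a WT mean of 0.898 CPM. Of 20 Myc and mTORC1 regulators, none rose and 5 fell in blood, among them Myc itself (-0.88 ± 0.16), the amino acid transporter Slc7a5 (-0.80 ± 0.15) and the mTORC1 subunit Rptor (-0.50 ± 0.09). Rptor also fell in lymph node (-0.38 ± 0.09). In lung 2 rose, Rheb (0.35 ± 0.09) and Mlx (0.37 ± 0.10), and 5 fell, among them Tsc1 (-0.34 ± 0.08), Pik3ip1 (-0.92 ± 0.22) and Sesn1 (-0.67 ± 0.16).

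Many members differed in level between tissues, with Hif1a, Hk2, Egln3 and Slc16a3 higher in lung and Hk1 and Ddit4 higher in spleen. Lung libraries of both genotypes differed from spleen in 23 members, 16 higher and 7 lower in lung, against 52.5% of all genes (59.4% with the filter on the fitted libraries). The share of members called was somewhat above that background. Ndrg1 ran from 95.1 over 139 to 252 CPM in lung and from 34.7 over 49.5 to 81.9 CPM in spleen (lowest, median and highest of 6 libraries), a log2 difference of 1.46 ± 0.09 (adjusted p = 1.97e-13). Egln3 ran from 56.8 over 94.9 to 139.7 CPM in lung and from 9.58 over 15.9 to 26.4 CPM in spleen (2.54 ± 0.15, 1.83e-11). Hk2 (chr6:82725025-82774454), the hexokinase induced on activation, ran from 17.5 over 25.8 to 38.9 CPM in lung and from 2.11 over 2.62 to 3.85 CPM in spleen (3.31 ± 0.25, 1.24e-10). No lung library overlapped a spleen library for these 3 genes. Slc16a3 (1.65 ± 0.14), Mxi1, a Max-binding antagonist of Myc (1.35 ± 0.10), and Hif1a (1.01 ± 0.09) were also higher in lung without overlap. Gapdh counts were higher too (2.35 ± 0.20). Vegfa had 84 to 106 counts per library in WT lung and 60 to 104 in KEP lung, against 0 to 3 counts per spleen library.

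Lower in lung than in spleen were Ddit4, which ran from 88.6 over 111 to 129 CPM in lung and from 169 over 289 to 306 CPM in spleen (-1.30 ± 0.16, 2.46e-06), and the housekeeping hexokinase Hk1, from 208 over 217 to 232 CPM and from 248 over 261 to 287 CPM (-0.27 ± 0.05, 5.53e-05). The enolase Eno1 (-0.36 ± 0.06), Aldoa (-0.30 ± 0.05), Pfkfb3 (-0.25 ± 0.05), Pfkm (-0.36 ± 0.09) and Pfkl (-0.15 ± 0.06) were lower as well. Scaling to pan-T genes gave 22 higher and 5 lower members and lost the calls of Pfkfb3 and Pfkl. Hk2 made up 15.3% ± 4.52 (SD, n = 6) of the length-scaled hexokinase counts in lung and 1.501% ± 0.302 in spleen, without overlap (exact two-sided permutation p = 0.002165, the smallest that 6 against 6 allow, and 0.0346 after adjustment over 96 share tests). Lungs were digested with Liberase, and no digestion is stated for spleen, so that digestion and tissue cannot be told apart here. Of 9 markers of stroma and endothelium, 8 were called higher in lung and none lower, with a median log2 difference of 3.05. Their sums, 198 to 287 CPM in lung and 159 to 200.2 CPM in spleen, consist mostly of Pecam1, the ninth (means of 198.7 and 172.5 CPM). The 9 macrophage markers summed to 40.0 to 179 CPM in lung and 8.81 to 37.3 CPM in spleen. The part of these cells in the lung results was not tested.

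Blood differed from spleen in 17 members, 8 higher and 9 lower, against 33.8% of all genes (40.6%). Lymph node differed in 13, 7 higher and 6 lower, against 17.7% (21.8%), with 8.53% of all genes higher and 9.14% lower. Between lymph node and spleen 3 members did not overlap, against 7.90% of all genes. In blood Ndrg1 ran from 86.5 over 122 to 152 CPM (1.19 ± 0.09 against spleen, 1.52e-10) and Ddit4 from 64.6 over 92.8 to 182 CPM (-1.44 ± 0.16, 2.89e-06). Ndrg1 did not overlap between blood and spleen, and Ddit4 did. Bnip3l (0.49 ± 0.06), Mxi1 (0.71 ± 0.10), Egln3 (1.21 ± 0.15), P4ha1, a collagen prolyl hydroxylase (0.56 ± 0.10), Aldoc (0.53 ± 0.17), Slc2a3 (0.17 ± 0.06) and Hif1a (0.23 ± 0.09) were higher in blood. Aldoa (-0.34 ± 0.05), Hk1 (-0.21 ± 0.05), Pfkm (-0.33 ± 0.09), Egln1 (-0.19 ± 0.06), Eno1 (-0.20 ± 0.06), Pfkp (-0.16 ± 0.05), Pfkfb4 (-0.41 ± 0.14) and Pfkfb3 (-0.15 ± 0.05) were lower. Red cell markers summed to 1980 to 8098 CPM in blood and 28.4 to 578 CPM in spleen, with 5 of 7 called higher in blood, and their part in these results was not tested. Scaling to pan-T genes moved the split to 12 higher and 2 lower in blood. With that scaling the split for lymph node was 8 higher and 2 lower.

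In lymph node Slc2a3 ran from 158 over 175 to 198 CPM and from 230.3 over 249 to 257 CPM in spleen, without overlap (-0.49 ± 0.06, 1.38e-06). Hk2 ran from 5.18 over 6.52 to 8.52 CPM there and did not overlap with spleen either (1.29 ± 0.25, 0.000813). Egln3 (0.85 ± 0.15), Ndrg1 (0.33 ± 0.09), Bnip3 (0.50 ± 0.15), the mutase Pgam1 (0.28 ± 0.08), Eno1 (0.20 ± 0.06) and Pkm (0.21 ± 0.07) were also higher in lymph node. Pfkp (-0.25 ± 0.05), Hk1 (-0.18 ± 0.05), Ddit4 (-0.52 ± 0.16), Pfkfb4 (-0.42 ± 0.14) and Egln1 (-0.16 ± 0.06) were lower. Leaving out 1 library brought the lymph node count down to 8 without WT spleen replicate 1, WT lymph node replicate 2 or 3, KEP spleen replicate 2 or KEP lymph node replicate 1.

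Tumor libraries held the highest levels of most members. Of the 34, 21 had their highest group mean in KEP tumor, 6 in WT mammary gland, 2 each in KEP blood, WT spleen and WT lung, and 1 in KEP lung. The same count was not made for all genes, so that it describes the members only. Summed over the 34, tumor held 14650, 10390 and 9654 CPM and the 28 other libraries 4299 to 6757 CPM. Against KEP spleen, 25 members rose in tumor and none fell, against 42.5% of all genes called (47.2% with the filter on the fitted libraries) and 25.5% called higher. The tumor was also compared with KEP blood, where 24 rose and 1 fell against 43.0% (48.0%) of all genes called. Against KEP lymph node 23 rose, beside 41.5% (45.7%) called, and against KEP lung 16 rose, beside 28.2% (32.5%). Of all genes, 25.7% were called higher against blood, 24.9% against lymph node and 17.8% against lung. These 4 comparisons share the 3 tumor libraries. Vegfa and Adm are counted as risen in each, although they were near 0 in KEP blood, spleen and lymph node. Without overlap stood 26 members against blood, 26 against spleen, 18 against lung and 26 against lymph node, beside 60.5%, 61.9%, 50.4% and 60.4% of all genes. The median log2 fold change of the members was 1.55 against spleen, 1.27 against blood, 1.46 against lymph node and 0.80 against lung, and that of all genes lay between 0.10 and 0.13. Markers of other cells were higher in the tumor as well. Against KEP spleen, 8 of 9 stromal and endothelial, all 9 macrophage, 7 of 10 epithelial and 6 of 10 proliferation markers were called higher. Epithelial markers summed to 173, 204 and 2277 CPM in tumor and 15.4 to 43.6 CPM in the other KEP tissues. Proliferation markers summed to 639 to 796 CPM in tumor and 282 to 553.5 CPM in KEP spleen. The part of these cells in the tumor results was not tested. The labels state a digestion for tumors and none for spleen, so that digestion and tissue cannot be told apart in that comparison.

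At the entry of glycolysis Hk2 and Slc2a1 rose in tumor, while Hk1 and Slc2a3 were not called. Hk2 stood at 136, 67.5 and 94.1 CPM in tumor and 3.85, 2.63 and 2.11 CPM in KEP spleen, without overlap. Its log2 fold change was 5.11 ± 0.38 against spleen (adjusted p = 0.00119), 5.10 ± 0.50 against blood (0.00189), 3.91 ± 0.34 against lymph node (0.00156) and 1.97 ± 0.40 against lung (0.017). With replicate 1 as the only tumor library the log2 fold change against lung was 2.42, with an adjusted p of 0.0618 from a tumor arm of 1 library. Hk1 stood at 266, 229 and 232 CPM in tumor and 259, 263 and 248 CPM in KEP spleen, which overlapped, and was called in none of these comparisons. Hk2 thus made up 36.2% ± 6.29 of the length-scaled hexokinase counts in tumor and 1.57% ± 0.463 in KEP spleen, while mammary gland held 33.1% ± 5.60. Slc2a1 stood at 334, 187 and 214 CPM in tumor and 50.6, 56.8 and 55.3 CPM in KEP spleen (2.17 ± 0.24, 0.00273). It rose against blood (2.03 ± 0.26), lymph node (2.23 ± 0.24) and lung (1.42 ± 0.24) as well. Slc2a3, in contrast, stood at 293, 178 and 65.1 CPM in tumor and 230.3, 257 and 257 CPM in KEP spleen and was not called. The order of Slc2a3 among the tumor libraries was that of the pan-T sums, as was that of members that rose, such as Hif1a, Slc16a3, Tpi1 and Pgk1. Hk2 and Slc2a1 were lowest in replicate 2 instead, and the part of T cell content was not tested. Slc2a3 made up 24.8% ± 10.3 of the transporter counts in tumor. Pfkl stood at 261, 195 and 242 CPM in tumor and 98.9, 92.2 and 103 CPM in KEP spleen; it rose against lung (1.53 ± 0.15), lymph node (1.38 ± 0.14) and blood (1.38 ± 0.15).

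**Figure D4:**
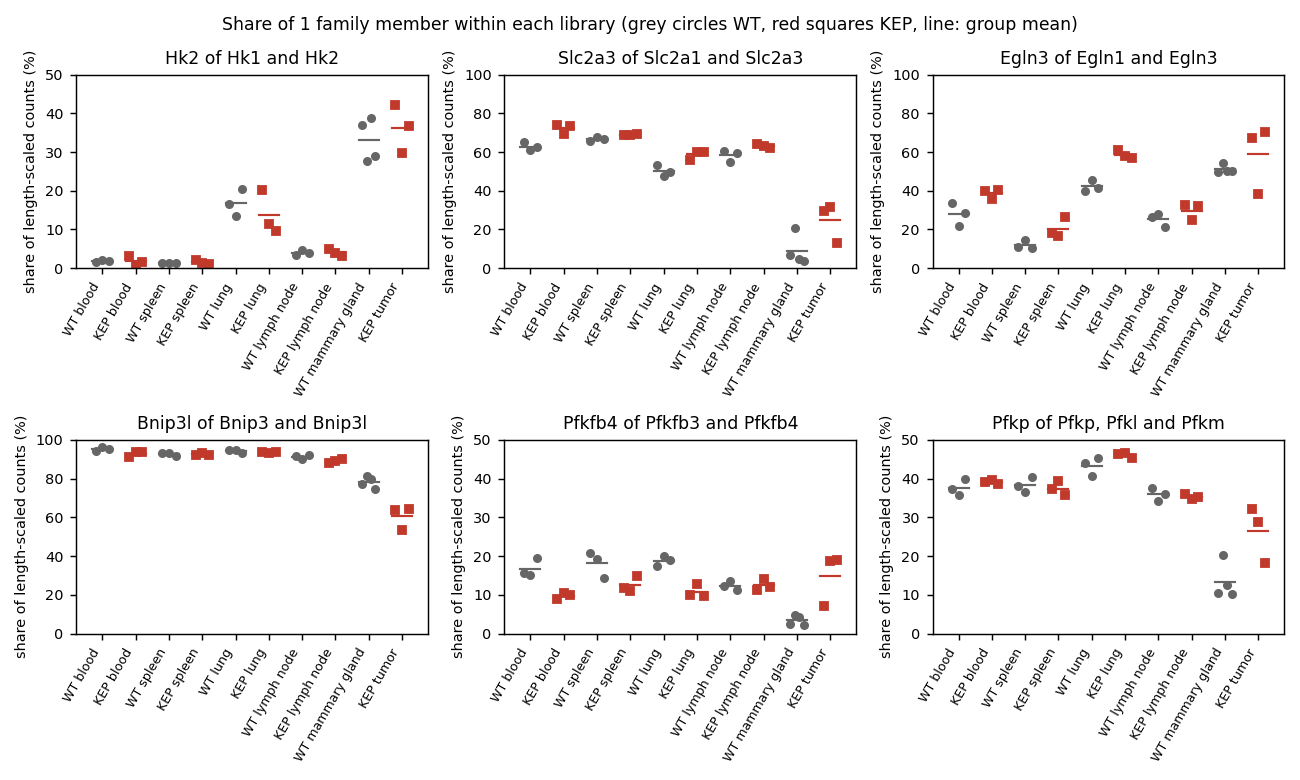
Share in percent of one paralog among the length-scaled counts of its gene family, with 1 point per library, in the 10 groups. The Hk2 share is near 1 to 5% in blood, spleen and lymph node, higher in lung, and highest in mammary gland and tumor, and the Slc2a3 share is lowest in those 2 groups.

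Of lower glycolysis, Tpi1, Pgk1, Pgam1, Eno1, Pkm and Aldoa rose in tumor against each of the 4 KEP tissues. Tpi1 stood at 711, 554 and 405 CPM in tumor, 76.5, 69.4 and 77.2 CPM in KEP spleen and 104, 69.2 and 65.6 CPM in KEP lung. Pgk1 stood at 409, 329 and 278 CPM in tumor, 103, 95.1 and 98.5 CPM in spleen and 147, 114 and 106 CPM in lung. Pgam1 stood at 311, 371 and 291 CPM in tumor, 81.1, 78.5 and 79.7 CPM in spleen and 91.1, 68.5 and 72.1 CPM in lung. Every tumor library was above every library of those groups for the 3 genes, and the smallest margin was that of tumor replicate 3. Against spleen the log2 fold changes were 2.90 ± 0.24 for Tpi1 (adjusted p = 0.00141), 1.78 ± 0.18 for Pgk1 (0.00209) and 2.02 ± 0.14 for Pgam1 (0.00113). Against lung they were 2.81 ± 0.30 (0.0043), 1.46 ± 0.21 (0.00744) and 2.07 ± 0.18 (0.0028). Against blood they were 2.81 ± 0.25, 1.81 ± 0.18 and 2.12 ± 0.15, and against lymph node Tpi1 rose by 2.68 ± 0.27, Pgk1 by 1.54 ± 0.21 and Pgam1 by 1.68 ± 0.18. Eno1 stood at 638, 551 and 546 CPM in tumor and 267, 223 and 237 CPM in KEP lung (1.25 ± 0.16, 0.00562). Ldha, which stood at 1473, 1044 and 965 CPM in tumor, rose against spleen, blood and lymph node and was not called against lung (0.37 ± 0.23, 0.273).

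The regulator Hif1a and its targets Bnip3 and Slc16a3 rose against spleen, blood and lymph node. Hif1a stood at 877, 679.5 and 512 CPM in tumor, above every KEP blood, spleen and lymph node library, and overlapped with KEP lung, where the difference was not called (0.54 ± 0.23, 0.129). Bnip3, whose upstream window is printed above, stood at 53.1, 69.6 and 44.6 CPM in tumor and 6.53, 5.57 and 6.55 CPM in KEP spleen. It rose by 3.16 ± 0.21 against spleen (0.00113), 3.01 ± 0.22 against lung (0.0026), 2.65 ± 0.25 against blood (0.00172) and 2.47 ± 0.21 against lymph node (0.00145). Bnip3l fell against blood (-0.44 ± 0.13, 0.0348), from 187, 186 and 209.6 CPM to 158, 138 and 136 CPM in tumor, without overlap. That call did not hold with RLE factors (-0.32, 0.0708), without the filter (adjusted p = 0.0554), with the title date as a block (0.0869) or with replicate 1 as the only tumor library (0.0847). Scaling to pan-T genes turned its direction (log2 fold change 0.38, adjusted p = 0.54). Slc16a3 stood at 339.5, 185 and 81.5 CPM in tumor and 10.5, 11.8 and 12.95 CPM in KEP spleen (4.10 ± 0.54, 0.00386). Ndrg1 rose against lymph node (2.29 ± 0.25, 0.00231), from 64.9, 66.3 and 67.9 CPM to 367, 216 and 391.9 CPM, and was not called against lung (0.12).

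The secreted factors were nearly absent outside lung, gland and tumor. Vegfa had 868 to 2352 counts per tumor library and 2 counts in all 3 KEP spleen libraries together, 4 in KEP blood and 13 in KEP lymph node. In KEP lung it stood at 8.51, 9.72 and 5.55 CPM against 85.2, 186 and 227 CPM in tumor (4.39 ± 0.44, 0.00409). Adm had 217 to 272 counts per tumor library and 4 counts in all KEP spleen libraries, 2 in KEP blood and 2 in KEP lymph node. In KEP lung it stood at 1.25, 0.935 and 2.87 CPM against 23.95, 19.3 and 26.2 CPM in tumor (3.77 ± 0.47, 0.00562). Both genes were called in the 4 comparisons, and no fold is given against groups near 0. With so few counts in KEP blood, spleen and lymph node, they passed the filter only through other groups. The calls against those tissues therefore carry no weight of their own. Vegfa was lowest in tumor replicate 1, the tumor library with the highest pan-T sum, and highest in replicate 3. In mammary gland it stood at 152, 108, 185 and 349 CPM. The remaining members called against KEP spleen were Mxi1, Egln3, Pdk1, which holds back pyruvate dehydrogenase, Ero1l, an oxidase of the endoplasmic reticulum, Aldoc, Ankrd37, Pfkm, Gapdh and P4ha1. Not called were Gpi1, Egln1, Ddit4, Pfkp, Bnip3l, Slc2a3, Pfkfb4, Hk1 and Pfkfb3.

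**Figure D5:**
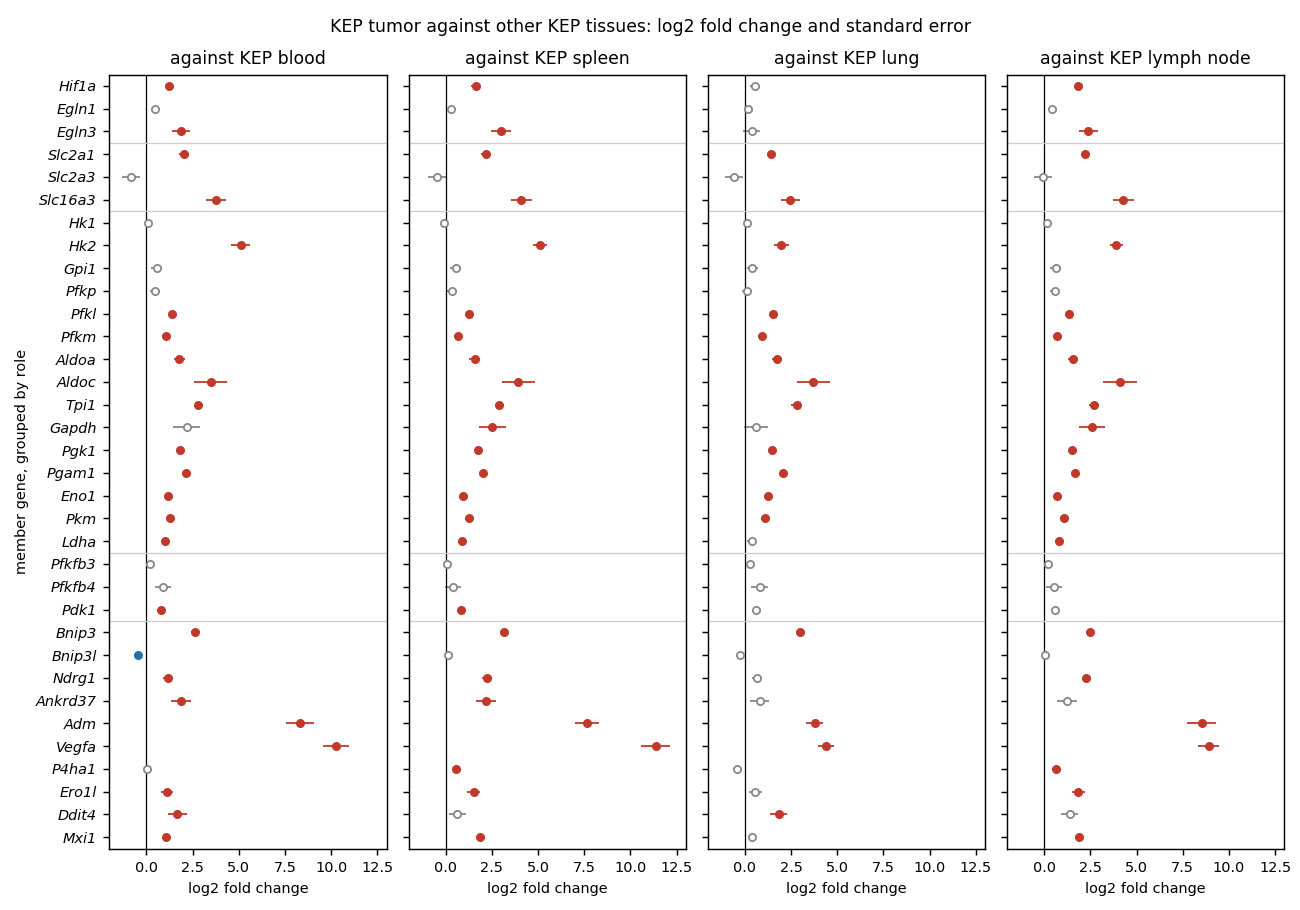
Log2 fold change of KEP tumor, with its SE, against KEP blood, spleen, lung and lymph node, for the 34 members. Filled points are called genes; the values of Vegfa and Adm against blood, spleen and lymph node rest on near-zero counts in those groups and are no measure of size.

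The 3 tumor libraries differed among themselves. Of the 34 members, 24 were highest in tumor replicate 1, 5 in replicate 2 and 5 in replicate 3, and 19 were lowest in replicate 3. Replicate 1 was above every KEP spleen library in 33 members, replicate 2 in 31 and replicate 3 in 27, against 44.6%, 46.5% and 48.8% of all genes. Against KEP lung the numbers were 30, 24 and 22, against 41.1%, 43.6% and 45.9%. With replicate 1 as the only tumor library, a choice made after the data were seen, 30 members were called against spleen (48.4% of all genes), 28 against blood (43.6%), 31 against lymph node (51.0%) and 25 against lung (26.2%). Its spread is then taken from the other group. Replicate 1 had the highest pan-T sum of the 3 and was the lowest of them in 4 members. Leaving out replicate 1 or another tumor library changed no count against KEP spleen by more than 1.5 times. Against lung the count fell to 10, 8 or 9 without KEP lung replicate 1, 2 or 3, against blood to 16, 16 or 15 without KEP blood replicate 1, 2 or 3, and against lymph node to 15 without KEP lymph node replicate 2 or 3.

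Against WT mammary gland, 20 members rose in tumor and 1 fell, against 23.4% of all genes called (24.4%), 9.14% higher and 14.3% lower. Of the 34, 20 did not overlap between the groups, against 38.8% of all genes. The labels state a digestion for tumors and not for mammary gland, so that digestion and tissue cannot be told apart. Gland replicates 1, 3 and 4 had the low pan-T sums given above. Scaling to pan-T genes therefore shifted every value, and the median of all genes went from -0.10 to -3.41. The median of the members was then -2.34, against 1.06 with TMM, and 18 of the 34 were called lower, against 83.4% of all genes. Pgk1 stood at 409, 329 and 278 CPM in tumor and 97.3, 75.7, 83.9 and 61.3 CPM in gland, without overlap (2.09 ± 0.22, 0.00312). Hif1a stood at 877, 679.5 and 512 CPM in tumor against 159.9, 233, 146 and 148 CPM in gland (2.01 ± 0.26, 0.00491), and Bnip3 at 53.1, 69.6 and 44.6 CPM against 11.9, 12.9, 14.6 and 19.5 CPM (1.92 ± 0.24, 0.00442). Neither overlapped between the groups. Pkm (1.505 ± 0.20, 0.00517), Pgam1 (1.60 ± 0.22, 0.00555), Eno1 (1.08 ± 0.18, 0.00829), Tpi1 (1.41 ± 0.25, 0.0101) and Aldoa (1.499 ± 0.27, 0.0106) rose too. Pfkfb3, a paralog of Pfkfb4, fell, from 215, 244, 199 and 263 CPM in gland to 94.8, 96.4 and 66.1 CPM in tumor (-1.42 ± 0.20, 0.00598). With gland replicate 2, the one richest in pan-T genes, as the only control, no member was called, the control arm being 1 library (adjusted p from 0.325 to 0.69 for the 21 members). The log2 fold changes were then 2.16 for Pgk1, 2.12 for Bnip3, 1.89 for Pgam1, 1.69 for Tpi1, 1.57 for Hif1a and 1.43 for Pkm. The count was 13, 11 and 13 without gland replicate 1, 3 or 4.

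Of 30 other hypoxia targets, 26 rose against KEP spleen and none fell, beside 25.5% of all genes higher and 16.9% lower. Tfrc, the transferrin receptor, rose by 2.83 ± 0.19, and Lox, a matrix enzyme typical of stroma, had a mean of 181 CPM in tumor and near 0 in spleen. Of 28 other glucose metabolism genes, 11 rose and 1 fell. Pdk3 (0.99 ± 0.13), the mutase Pgm2 (0.74 ± 0.12) and the lactate transporter Slc16a1 (1.35 ± 0.23) rose, and Adpgk fell (-0.61 ± 0.12). Of 10 HIF subunits and regulators, Epas1, the second HIF alpha subunit (2.84 ± 0.18), and Siah2 (1.62 ± 0.18) rose. Hif1an (-0.71 ± 0.10), Hif3a (group means of 0.281 CPM in tumor against 2.33 CPM) and Egln2 (-0.55 ± 0.15) fell. Of 20 Myc and mTORC1 regulators, 5 rose, among them Slc3a2 (1.71 ± 0.15), Rheb (1.04 ± 0.10) and Sesn2 (1.25 ± 0.17). Another 8 fell, among them the kinase inhibitor Pik3ip1 (-2.74 ± 0.27), Mlx (-0.78 ± 0.12) and Tsc1 (-0.58 ± 0.10). All of these values except that of Hif3a are log2 fold changes with their SE.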

How the data were processed

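Polyadenylated RNA of sorted cells was sequenced as 65-base single reads in 31 libraries, per the labels' protocols. TopHat2 2.1.0, HTSeq and the build GRCm38 are named in the submitters' processing notes; their annotation release and strand setting are not given in the sources used here. The deposited file holds raw counts per gene, as whole numbers, for 24594 genes, and its columns matched the sample titles. The 34 members and the other lists were chosen with earlier results of these data known. In R 4.3.3, edgeR 4.0.16 gave TMM factors from all 31 libraries, a filter with a minimum count of 10 left 15202 genes, and the robust quasi-likelihood F test was adjusted by Benjamini-Hochberg over all of them. KEP against WT, tissue contrasts and the interaction came from 1 fit of 24 libraries; tumor comparisons used the 2 groups compared. Shares of paralogs were tested by exact permutation of libraries. The test was run first on simulated data in which every gene had the same relative spread. That run does not cover the larger spread of the tumor and gland libraries. Named in full were the called members with the smallest p, at most 8 each way, or the 3 smallest p where fewer than 3 were called; of other lists, at most 3 called genes each way, of which 1 is not reported here. Members outside the rule are named only by value. Alternatives were RLE factors, pan-T scaling, no filter, DESeq2 1.42.0, all 31 libraries in 1 fit, each library left out and the title date as a block. The filter on the fitted libraries, tumor replicate 1 alone and gland replicate 2 alone were added after the data were seen.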

Additional observations from a re-analysis of the deposited data

Results flagged for a closer look

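In WT mammary gland, replicate 2 stood far above the other 3 libraries for Hif1a, at 232.7 CPM against 145.7 to 159.9 CPM. The same library was high for Slc2a3, at 106.9 CPM against 16.03 to 27.1 CPM, and for P4ha1, at 89.6 CPM against 33.6 to 39.6 CPM. It was also the gland library with the highest pan-T sum, and the part of that in these values was not tested. Bnip3l was low in gland replicate 1, at 68.1 CPM against 94.2 to 98.0 CPM. Each gap exceeded Dixon's critical value for its group, which chance alone passes in about 1 in 20 groups. The KEP difference of Ndrg1 varied among blood, spleen, lung and lymph node (adjusted p = 0.0312, edgeR interaction test), being near 0 in lymph node. That call was lost without any 1 of 9 libraries, under pan-T scaling and in the fit of all 31 libraries, while DESeq2 called Ndrg1 and Ddit4.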

How the results depend on the processing

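With all 31 libraries in 1 fit, the members called were 3 in KEP against WT blood, 0 in spleen and 3 in lung, 25 in tumor against KEP lung, 2 in lymph node and 9 in blood against spleen, and 0 for the interaction. DESeq2 gave 6 in KEP against WT spleen and 2 for the interaction, and pan-T scaling gave 0 for the interaction. Tumor replicate 1 alone gave 25 against KEP lung, and gland replicate 2 as the only control gave 0 from an arm of 1 library, where the log2 fold changes were, for example, 2.16 for Pgk1, 2.12 for Bnip3 and 2.94 for Slc16a3. Other counts stayed within 1.5 times the reported ones under these settings. For tumor against gland under pan-T scaling this holds for the count alone, because the direction turned, with 0 members higher and 18 lower. Apart from the shares given above, the share of all genes called was not counted for the alternative settings, so that these counts have no background. Leaving out 1 library gave 7 to 14 calls in KEP against WT blood, 1 to 3 in spleen, 7 to 16 in lung and 0 to 0 in lymph node. It gave 11 to 23 for tumor against gland, 15 to 28 against KEP blood, 17 to 28 against spleen, 8 to 19 against lung and 15 to 29 against lymph node. For lung, lymph node and blood against spleen the ranges were 22 to 24, 8 to 14 and 13 to 17, and for the interaction 0 to 1. Blood fell to 7 without WT or KEP blood replicate 3, spleen to 1 without WT spleen replicate 1 or KEP spleen replicate 3, and lung to 7 without WT or KEP lung replicate 1. The Ndrg1 interaction was lost without any of 9 libraries of spleen, lung or lymph node. Of the called members, 5 of 11 in KEP against WT blood and 6 of 12 in lung kept their call whichever library was left out. For tumor these were 10 of 21 against gland, 15 of 25 against KEP blood, 17 of 25 against spleen, 8 of 16 against lung and 15 of 23 against lymph node. Against spleen they were 22 of 23 for lung, 5 of 13 for lymph node and 11 of 17 for blood.

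Under pan-T scaling the log2 fold change of tumor against gland reversed for Pgk1 (-1.32), Bnip3 (-1.58), Hif1a (-1.30), Pkm (-1.86), Pgam1 (-1.79), Eno1 (-2.34), Tpi1 (-2.11), Aldoa (-1.96), P4ha1 (-0.99), Ddit4 (-1.10), Mxi1 (-2.34), Egln1 (-2.35), Ero1l (-1.94), Adm (-1.90), Bnip3l (-2.74), Gpi1 (-2.52), Egln3 (-1.55), Ldha (-2.67) and Pfkp (-2.34), and that of Bnip3l against KEP blood became 0.38. Scaling by few T cell genes changes every value by construction where pan-T sums differ. The same scaling split KEP against WT lung into 4 higher and 5 lower.

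No paired analysis was possible for KEP against WT because no title date holds both genotypes. Same-date libraries outside tumor and gland deviated together in 18 of 18 KEP pairs (r over 0.1) and 15 of 18 WT pairs, against 0 of 36 pairs of different dates in each genotype, and in 0 of 12 pairs with tumor. Not every pair passed and the labels do not say what the date marks, so the fits reported leave it out. Those fits treat libraries of the same date as independent. The interaction was not run with the date as a block. With the date as a replicate block the counts were 23, 24, 16 and 24 for tumor against KEP blood, spleen, lung and lymph node, and 26, 15 and 18 for lung, lymph node and blood against spleen. Calls of Bnip3l (0.0869), Ddit4 (0.0695) and Ankrd37 (0.0556) against blood and P4ha1 (0.0568) against spleen were lost with the block (adjusted p). It added Gapdh against blood, Pdk1 against lymph node, Aldoc, Pkm and Pfkfb4 in lung, Pgk1 and Ero1l in lymph node and Slc2a1 in blood against spleen.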
